A study of Homo sapiens with 4 samples.

Results

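Treated H1299 cells were split by how much MT1E, a metallothionein gene, they carried. H1299 is an established line of human non-small cell lung cancer cells. Of the 3726 cells of the treated H1299 library, 3431 had at least 8000 counts over the gene and transposable element (TE) tables. Among these, 1154 cells had 5 or more MT1E counts and are called MT1E-high, and 1009 had none and are called MT1E-negative. The 1268 cells with 1 to 4 MT1E counts lay between them and entered neither group. All 4 libraries of the series together held 15289 cells. MT1E chose the groups, so its own difference between them is a description of the choice, and it was left out of every comparison and of the totals that levels of other genes are divided by.

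The study sequenced single cells of H1299 and of the colorectal cancer line HCT116 with a droplet method that reads transcripts from their 5′ ends, 1 library for each line and condition. The treated H1299 cells had received DAC (decitabine, an inhibitor of DNA methyltransferases) at 500 nM for 72 h and SB939 (an inhibitor of histone deacetylases) at 500 nM for 18 h, and the control library of the same line had received the solvent DMSO. Treated HCT116 cells, set beside them below, had received the same drugs at the same doses and for the same times. Medium was renewed every 24 h and cells were at passage 5 to 10. The MT1E-high and MT1E-negative cells therefore share line, culture, drugs, times and library, and differ by label in nothing. With 1 library there is no replicate, no test was made and every interval below covers counting error only, at the 95% level.

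Metallothioneins are small, cysteine-rich proteins that bind zinc and copper, and also cadmium, in the cytoplasm and nucleus. Their human genes lie next to each other on chromosome 16: MT1 has many copies and several pseudogenes, MT2A is the copy used in most tissues, MT3 is known from the brain and MT4 from stratified epithelium. The zinc-sensing factor MTF1 is known to switch them on through short metal response elements before the transcription start, and DNA methylation is known to silence several of them in tumours.

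The upstream sequences of 3 of these genes are shown because the genes differed widely in level here, with MT2A the most abundant and MT1B close to 0, and MT1X was counted mostly under a name that joins it to another gene. RefSeq's promoter table (GRCh38.p14) held 5 of the 12 genes of the list. Each line gives the 250 bases before the RefSeq start, plus strand, with matches to TGCACNC or TGCGCNC (forms of the core metal response element, searched on both strands) in capitals. GENCODE v29 gives other starts, 56608199 for MT2A and 56682424 for MT1X. By that annotation the MT2A stretch lies within the gene and the MT1X stretch runs into it.
MT2A, chr16:56608334-56608583: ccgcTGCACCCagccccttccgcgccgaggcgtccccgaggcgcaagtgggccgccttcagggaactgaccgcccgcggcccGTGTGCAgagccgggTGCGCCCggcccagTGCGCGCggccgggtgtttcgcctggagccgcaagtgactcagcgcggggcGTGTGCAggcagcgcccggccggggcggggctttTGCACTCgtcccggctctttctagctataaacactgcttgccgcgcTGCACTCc
MT1X, chr16:56682220-56682469: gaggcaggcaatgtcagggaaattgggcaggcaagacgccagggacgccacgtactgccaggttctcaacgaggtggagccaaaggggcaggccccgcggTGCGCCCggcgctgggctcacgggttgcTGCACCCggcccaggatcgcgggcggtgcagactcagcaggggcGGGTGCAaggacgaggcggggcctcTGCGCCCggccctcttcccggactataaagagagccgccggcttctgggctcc
MT1B, chr16:56651636-56651885: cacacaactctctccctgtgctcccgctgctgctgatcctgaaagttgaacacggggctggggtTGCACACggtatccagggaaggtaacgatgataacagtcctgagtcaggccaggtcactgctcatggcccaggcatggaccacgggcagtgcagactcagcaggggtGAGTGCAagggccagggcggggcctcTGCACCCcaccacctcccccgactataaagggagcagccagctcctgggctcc

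The MT2A stretch held 7 matches, the MT1X stretch 4 and the MT1B stretch 3. Of the other genes in the table, MT1H had 8 matches and MT4 had 3, and both were barely counted. The number of matches thus did not follow the level for MT1H, while MT4 was like MT1B, with 3 matches and a level close to 0. Of all 35116 upstream stretches in the table, 24.8% held at least 1 match to either form, 1.58% held 3 or more, 0.370% held 4 or more and 0.0313% held 7 or more. A match is only a match of letters.

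MT1E lies at chr16:56625475-56627112 on the plus strand (GRCh38, GENCODE v29). MT1E-high cells held 13769 MT1E counts, with a median of 9 and a maximum of 127 in a cell, or 617 CPM, where CPM is the count scaled to a total of 1000000 for the group. The middle group held 2758 counts, or 128 CPM. In the H1299 DMSO library, 1 of 3421 cells of that depth had a listed MT1E count. Up to 9 more counts can be missing there, since the numbered MT1E feature, which held most MT1E counts of treated H1299, is listed only from a total of 10. There was no gap in the treated distribution: 477 cells had 1 count, 312 had 2, 259 had 3 and 220 had 4, just outside the threshold, whereas 169 had 5, just inside it. The groups are thus ranges of 1 skewed distribution. The 144 cells with 20 or more counts held 26.4% of all MT1E counts. Within the MT1E-high group the share of a cell's counts ran from 136 to 3775 CPM, with a median of 516 CPM. At the median depth of the MT1E-negative cells, a count of 0 allows up to 196 CPM (3 counts), a level under which 35 of the 1154 MT1E-high cells lay.

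The groups differed in depth. MT1E-high cells had a median of 18184.5 counts (quartiles 14182 and 23042), cells of the middle group 15768.5 and MT1E-negative cells 15273 (quartiles 11807 and 19867). Among cells with 8000 to 16000 counts, 25.5% were MT1E-high and 33.9% MT1E-negative. Among cells with 24000 or more counts these shares were 47.6% and 22.0%. A deep cell therefore reached 5 MT1E counts more often, and every ratio below is given on shares of counts, with depth bands for the main ones. The bands narrow the depth gap but do not remove it. Median depths of MT1E-high and MT1E-negative cells were 13153 and 11981 counts in the shallowest band. They were 19444.5 and 19049 in the next and 28124 and 27447 in the deepest. As a further setting, each cell was thinned at random to 8000 counts and grouped anew, with 3 or more thinned MT1E counts (1027 cells) against 0 (1407 cells). The median depths of these regrouped cells were 16459 and 16372 counts. After thinning, 30 of the 1154 MT1E-high cells had no MT1E count left (2.6%). The same held for 368 of the 1268 cells of the middle group. The 1407 regrouped cells with 0 therefore include these cells, which had MT1E counts before thinning. Where a ratio was smaller in the regrouped cells, the parts of this mixing and of depth were not tested.

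**Figure D1:**
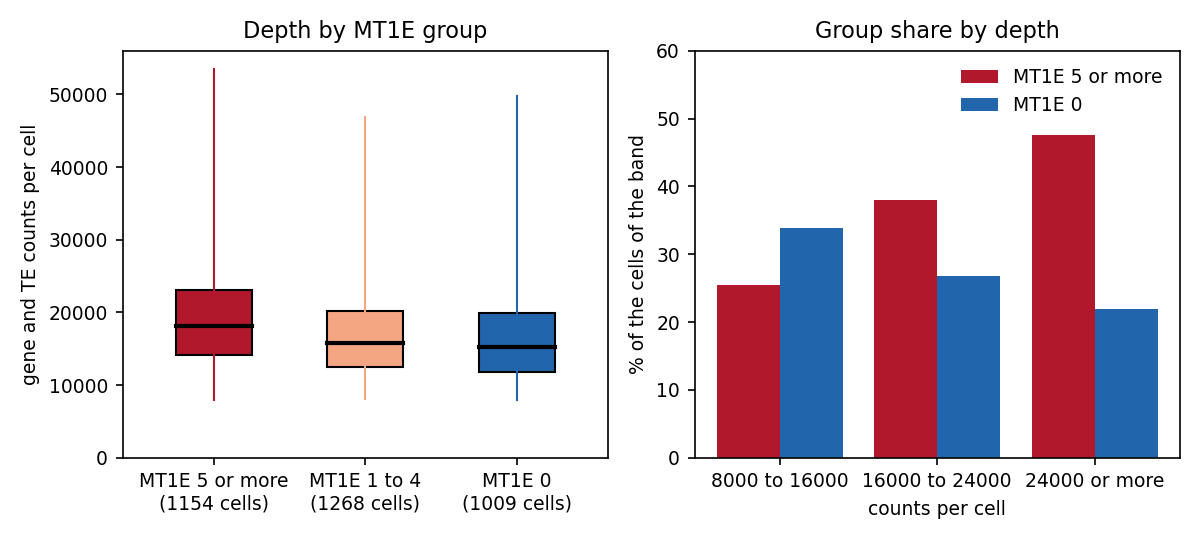
Left, gene and TE counts per cell in treated H1299 cells by MT1E group (line, lowest to highest cell; box, quartiles; bar, median). Right, the share of cells in each depth band that were MT1E-high or MT1E-negative; the MT1E-high share was 25.5% in the shallowest band and 47.6% in the deepest.

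Most of the other metallothioneins with enough counts were higher in MT1E-high cells. Over the 11 other genes of the family, 7 had the 200 counts needed for comparison, all 7 had a ratio above 1, and 5 passed 1.5-fold upward (MT1F, MT1A, MT1G, MT1L and MT2A). For comparison, 0.580% of the 10691 genes compared passed 1.5-fold upward and 0.449% downward. The median log2 ratio was 0.98 over the 7 members and 0.02 over all genes compared. Summed, the family without MT1E made up 4377 CPM in MT1E-high cells, 2964 CPM in the middle group, 2672 CPM in MT1E-negative cells and 1430 CPM with DMSO. These sums also leave out the joined name under which most MT1X was counted. The ratio of the sums was 1.64 (1.62 to 1.66). Within depth bands it was 1.90 at 8000 to 16000 counts, 1.57 at 16000 to 24000 and 1.37 at 24000 or more, and in the regrouped cells 1.51.

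MT2A carried nearly all of that sum. It stood at 4232 CPM in MT1E-high cells, 2862 CPM in the middle group and 2593 CPM in MT1E-negative cells, against 1427 CPM with DMSO. The log2 ratio of MT1E-high to MT1E-negative cells was 0.71 (0.69 to 0.72), and 0.59 in the regrouped cells. Cell by cell the groups overlapped widely. In cells thinned to 8000 counts, MT2A had a median of 28 counts (10th to 90th percentile 10 to 64, highest 197) in MT1E-high cells and of 15 counts (3 to 42, highest 238) in MT1E-negative cells. With DMSO the median was 9 counts (3 to 23). Of the MT1E-negative cells, 20.8% were above the MT1E-high median, and 97.6% had at least 1 thinned MT2A count. The summed MT2A level of MT1E-negative cells was above that of the DMSO library. How much free RNA in the droplets added to either value was not tested.

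MT1X was counted mostly under a name that joins it to the clone-named gene RP11-343H19.2, so its counts cannot be assigned to MT1X alone. The joined name stood at 1074 CPM in MT1E-high cells, 783 CPM in the middle group, 784 CPM in MT1E-negative cells and 72.3 CPM with DMSO, a log2 ratio of 0.46 (0.42 to 0.49). In thinned cells its median was 6 counts in MT1E-high and 4 in MT1E-negative cells, and 87.4% of MT1E-negative cells had a count against 37.5% of DMSO cells. The small part counted as MT1X alone was 8.42 CPM in MT1E-high and 7.27 CPM in MT1E-negative cells, whose intervals overlap (log2 ratio 0.21, -0.12 to 0.56).

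Several less abundant MT1 copies had larger ratios than MT2A. MT1F was at 20.1 CPM (448 counts) in MT1E-high cells, 11.5 CPM in the middle group and 7.33 CPM (122 counts) in MT1E-negative cells, a log2 ratio of 1.45 (1.16 to 1.76). MT1A was at 14.6 CPM (325 counts) and 6.19 CPM (103 counts), a log2 ratio of 1.24 (0.91 to 1.57). Both were listed at 0 with DMSO. Each was found in few cells: after thinning, MT1F had a count in 12.3% of MT1E-high and 4.76% of MT1E-negative cells, and MT1A in 10.8% and 4.16%.

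MT1G, which lies on the minus strand, was at 43.8 CPM in MT1E-high and 22.0 CPM in MT1E-negative cells (log2 ratio 0.99, 0.82 to 1.17). A few cells weighed on both values, since the highest cell held 114 of 977 counts in the MT1E-high group and 100 of 367 in the MT1E-negative group. Without the highest cell of each group the log2 ratio was 1.27. Its log2 ratio was 0.94, 2.04 and 0.06 in the 3 depth bands from shallow to deep, and the last of these rested on single cells, since it was 0.95 without the highest cell of each group in that band. MT1L, annotated as a transcribed pseudogene, was at 29.4 CPM and 14.9 CPM (log2 ratio 0.98, 0.77 to 1.198). MT1M had too few counts for the comparison but lay on the same side, with 78 counts against 15, a log2 ratio of 1.96 (1.15 to 2.86).

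The remaining members differed less or were barely counted. MT3 was at 22.9 CPM in MT1E-high and 16.7 CPM in MT1E-negative cells, a log2 ratio of 0.46 (0.25 to 0.67) that did not pass 1.5-fold. MT1H had 57 counts in either group, a log2 ratio of -0.42 (-0.98 to 0.13), and -0.97 in the regrouped cells. Of those in MT1E-negative cells, 50 came from 1 cell, and without the highest cell of each group the log2 ratio was 2.41, so 1 cell decided its direction. MT1B had 5 counts against 4, and MT4 had 1 against 0. The family in the cells of this library was therefore uneven, with MT2A and the joined MT1X name far above the other copies in both groups, as the plot of levels by group shows.

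**Figure D2:**
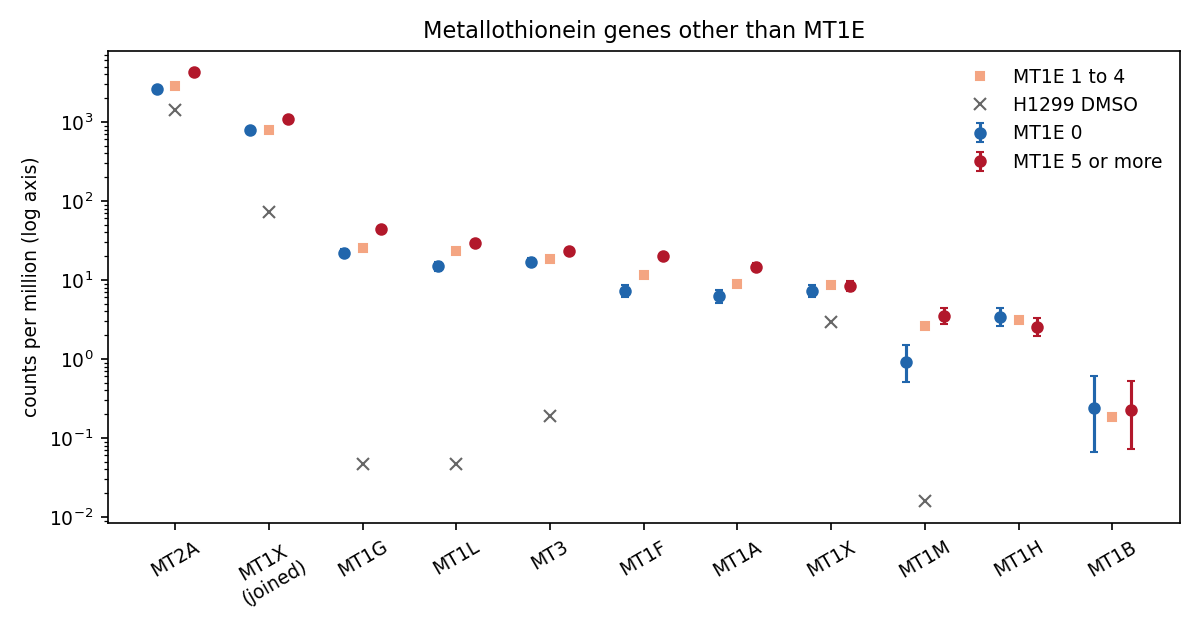
Level of each metallothionein other than MT1E in CPM on a log axis (circles with 95% counting intervals, MT1E-negative in blue and MT1E-high in red; squares, cells with 1 to 4 MT1E counts; crosses, H1299 DMSO cells where counted; MT4 had 1 count and is not drawn). All features drawn but MT1X counted alone, MT1H and MT1B lay higher in MT1E-high cells with intervals apart. The intervals cover counting error only, and the share of all compared genes with intervals apart is not given here. Abundant genes with small differences can have them too, such as GAPDH, lower in MT1E-high cells (8020 to 8095 CPM against 8994 to 9085 CPM).

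Near-identical copies can share reads. Of the 1098 different stretches of 50 bases in the annotated MT1E transcripts, 46 (4.19%) also occurred in a transcript of another family member: 39 in MT1G, 33 in MT1M, 18 in MT1H and 2 in MT1F. None occurred in MT2A, MT1X, MT1A, MT1L or MT3. How the counting treated reads that match several copies is unknown here, and their part in the MT1G, MT1M, MT1H and MT1F values was not tested.

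The levels of several members went with the number of MT1E counts beyond the split into groups. MT2A stood at 2593 CPM in cells with no MT1E count, 2862 CPM with 1 to 4, 3695 CPM with 5 to 9 (604 cells), 4252 CPM with 10 to 19 (406 cells) and 5925 CPM with 20 or more (144 cells). MT1F went from 7.33 to 25.6 CPM over the same classes and MT1A from 6.19 to 16.0 CPM. The joined MT1X name was level between 0 and 1 to 4 MT1E counts (784 and 783 CPM) and reached 1480 CPM with 20 or more. MT1G was at 22.0, 25.4, 28.7 and 40.7 CPM in the first 4 classes and at 100.1 CPM in the last. MT1L was at 14.9 CPM in the first class and between 22.97 and 31.9 CPM in the others. MT1X counted alone showed little order over the 5 classes, at 7.27, 8.59, 8.06, 8.09 and 10.4 CPM. MT1H was at 3.42, 3.11, 1.28, 2.99 and 5.65 CPM, where 50 of the 57 counts of the first class came from 1 cell. Median depth went from 15273 to 21698 counts over these classes.

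**Figure D3:**
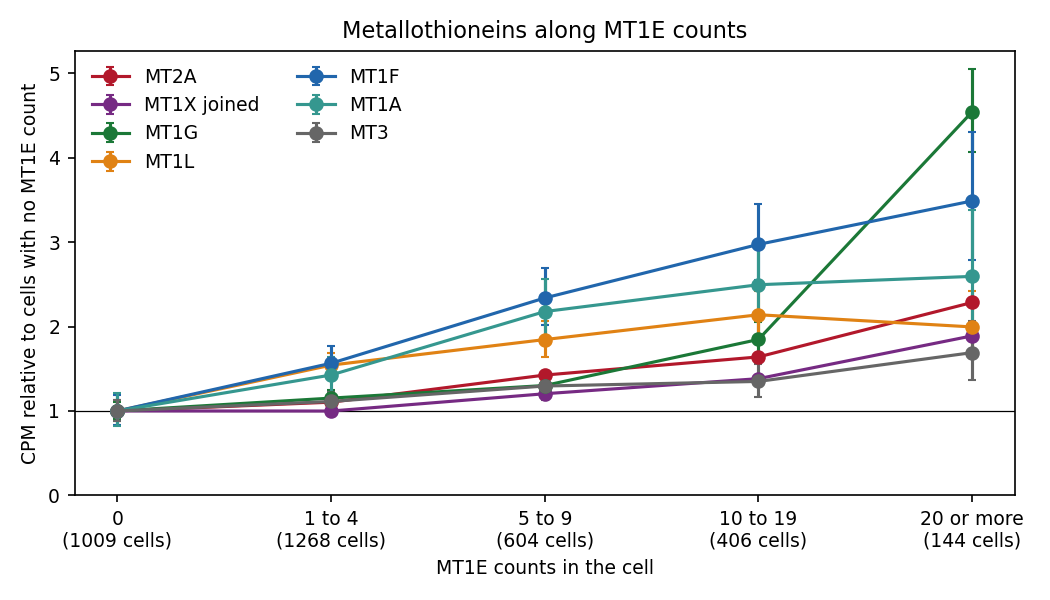
CPM of 7 metallothionein features in cells with 0, 1 to 4, 5 to 9, 10 to 19 and 20 or more MT1E counts, each divided by its own CPM in cells with no MT1E count (bars, 95% counting intervals of the CPM). All 7 were above 1 in the 3 classes with 5 or more MT1E counts; MT1F, MT1G and MT1A were highest in the last class.

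Across the 3431 cells, thinned to 8000 counts, the gene whose counts went most closely with MT1E among 6830 genes was MT2A, with a Spearman correlation of 0.29. The next were HMGN2, a nucleosome-binding protein, at 0.15, HN1 at 0.12, the clone-named RP11-206M11.7 at 0.11 and UBE2S, a ubiquitin-conjugating enzyme of mitotic exit, at 0.11. The joined MT1X name reached 0.20, MT1G 0.11, MT1L 0.09 and MT3 0.02. The median over all genes was 0.005. These cells share 1 library and the values other than that of MT2A were weak.

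Outside the family few genes differed by 1.5-fold. Of the 10691 genes compared, 62 passed 1.5-fold upward, 57 of them outside the family, and 48 passed downward in MT1E-high cells. A ratio above 1, of any size, was found for 55.1% of the genes compared. In the regrouped cells these counts were 31 and 27. With mitochondrial and ribosomal protein genes left out of the total they were 43 and 76, so the balance between higher and lower genes moved with the denominator. At the upper threshold AC092296.1 lay just inside, at a log2 ratio of 0.588, and FAM102B just outside, at 0.585. At the lower one TOR4A lay just inside, at -0.591, and SPRY1 just outside, at -0.585. The median log2 ratio was -0.01 over genes with 200 to 1000 counts, 0.06 from 1000 to 10000 and 0.07 from 10000 to 100000. Of the 53 genes with 100000 or more counts, 46 were below 1, with a median of -0.09, and GAPDH stood at 8057 CPM against 9040 CPM.

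**Figure D4:**
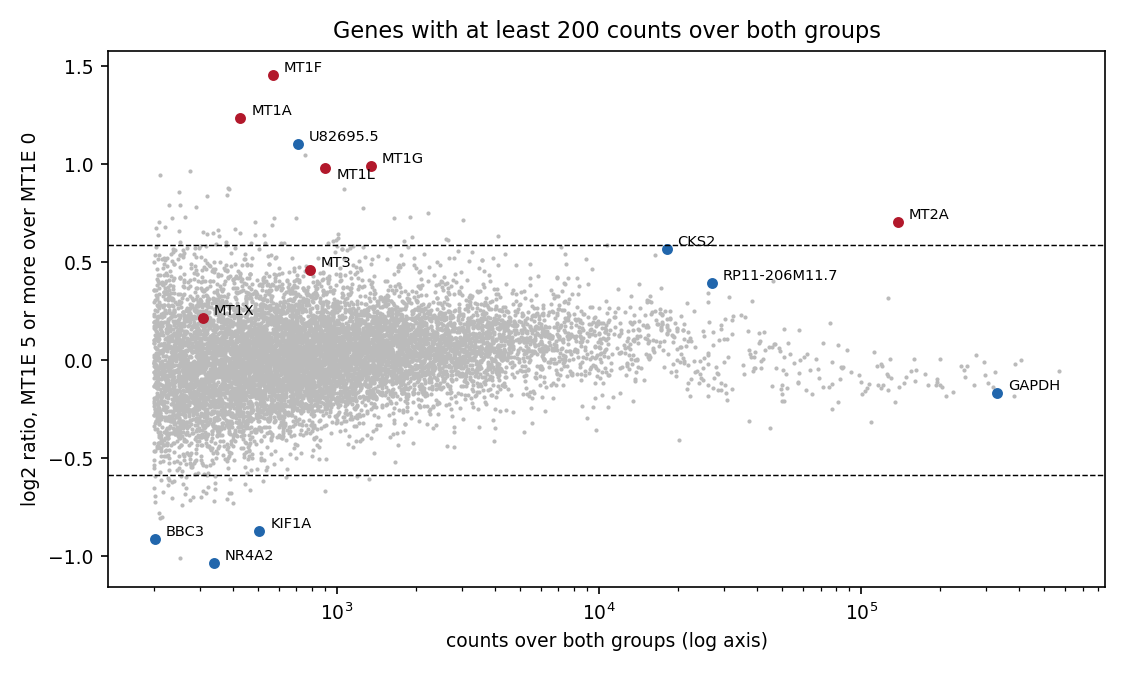
Log2 ratio of MT1E-high to MT1E-negative cells against total counts (log axis) for the genes with at least 200 counts; dashed lines mark 1.5-fold, metallothioneins are red and other named genes blue. MT1F (1.45) and MT1A (1.24) had the highest ratios, and MT2A (0.71) stood apart from genes of like abundance.

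Genes were named when they kept their direction after thinning and in all 3 depth bands. The highest outside the family was the clone-named U82695.5, at 23.6 CPM in MT1E-high, 16.2 CPM in middle and 10.99 CPM in MT1E-negative cells and 0 with DMSO, a log2 ratio of 1.101 (0.86 to 1.35). MAFF, a small MAF transcription factor, was at 12.3 CPM and 6.73 CPM (0.87, 0.55 to 1.204). IRGM, an immunity-related GTPase of autophagy, was at 12.1 CPM and 6.73 CPM and was not counted with DMSO (0.84, 0.52 to 1.17). The other 7 were ANKRD26P1, MAGIX, CTD-2554C21.2, CTD-2561J22.5, STK31, AC016725.4 and H2BFWT, with log2 ratios from 0.78 to 0.97. Of these 10 genes, U82695.5, IRGM, CTD-2554C21.2 and H2BFWT had no count in DMSO cells, ANKRD26P1 had 0.0157 CPM and STK31 0.0944 CPM. The other 4 were counted with DMSO, MAGIX at 2.66 CPM, AC016725.4 at 3.23 CPM, MAFF at 8.37 CPM and CTD-2561J22.5 at 13.6 CPM.

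The lowest was NR4A2, an immediate early nuclear receptor, at 6.005 CPM in MT1E-high, 7.94 CPM in middle and 12.3 CPM in MT1E-negative cells (log2 ratio -1.04, -1.36 to -0.71). One MT1E-negative cell held 27 of its 205 counts there. BBC3, which encodes the pro-apoptotic protein PUMA, was at 3.76 CPM and 7.09 CPM (-0.91, -1.33 to -0.50). KIF1A, a kinesin of axonal transport, was at 9.59 CPM and 17.5 CPM (-0.87, -1.13 to -0.61), against 0.346 CPM with DMSO. DDIT4, a stress-induced inhibitor of mTORC1, was at 7.71 CPM and 12.6 CPM (-0.71, -1.01 to -0.41). The other 6 were ADGRB2, RP11-379B18.5, PBX2, SPATA20, ADAMTSL4 and CDKAL1, with log2 ratios from -0.80 to -0.72. All 20 genes were on the same side in the regrouped cells, with smaller differences from 0 there, and 8 of them still passed 1.5-fold. The 20 were picked as extremes in largely the same cells. Neither the shared side nor the smaller differences is therefore a separate check.

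The gene lists below are to be read against all genes compared, of which 0.580% passed 1.5-fold upward, 0.449% downward and 55.1% were above 1, so that 0 or 1 member past 1.5-fold is near the background for lists of this size. Of the 68 named genes and families that did not pass 1.5-fold, 24 turned direction in at least 1 depth band or after thinning. Among them were ATP7A, SLC31A2, HMOX1, GCLM, LCN2, MAGEA10, S100A16, S100A4, S100A6, DCK, DNMT3A, HIST2H2BE and L1ME3E_3end, whose single ratios below are therefore no stable direction. The same holds for G0S2, MER4E1, MT-ND1 and MT-ND4L. The sum of other metal-handling genes was level between the groups. Of 25 zinc and copper genes, 23 were compared, 0 passed 1.5-fold in either direction, 10 were above 1 and the sum was at 1901 CPM in MT1E-high and 1910 CPM in MT1E-negative cells (ratio 1.00, 0.98 to 1.01). The highest was SLC30A1, the zinc exporter of the plasma membrane and itself a known MTF1 target, at 6.63 CPM and 5.34 CPM, with an interval that held equality (log2 ratio 0.31, -0.08 to 0.71). SLC31A2, a copper transporter, was at 0.30 and ATP7A, a copper-exporting ATPase, at -0.16. MTF1 itself was at 21.1 CPM and 22.9 CPM.

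Of the stress lists, none had a member past 1.5-fold upward. Of 13 NRF2 targets compared, 0 passed 1.5-fold, 7 were above 1 and the sum had a ratio of 0.98 (0.98 to 0.99). HMOX1, heme oxygenase 1, was at a log2 ratio of 0.31 over all cells and at -0.14 at 8000 to 16000 counts. Of 13 heat shock genes, 0 passed, 10 were above 1 and the sum had a ratio of 1.14 (1.13 to 1.14), 1.05 in the regrouped cells. HSPA1A, the inducible HSP70, was at 0.34 and HSPB1 at -0.13. Of 10 ATF4 targets, DDIT4 was lower and 0 were higher, with 8 of the 10 above 1. Of 10 interferon-stimulated genes 0 passed and 3 were above 1, with IFI6 at 0.34 and BST2 at -0.54. Of 12 hypoxia and glycolysis genes, 0 passed and 9 were above 1, with LDHA and ENO1 at 0.19. The sum had a ratio of 0.93, since the abundant GAPDH was at -0.17. Of 11 genes of p53 and arrest, 0 passed and 4 were above 1, with CDKN1A at 0.36 and TXNIP at -0.58. TXNIP turned direction between depth bands, at -0.31, 0.22 and -2.26 from shallow to deep.

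The summed G2/M list took a larger share of counts in MT1E-high cells. All 20 genes of the G2/M list were above 1, the median log2 ratio was 0.45, and CCNA2, cyclin A2, alone passed 1.5-fold (58.7 CPM against 37.9 CPM, log2 ratio 0.63, 0.49 to 0.77). In the regrouped cells CCNA2 was at 0.37 and did not pass. The sum was at 3109 CPM in MT1E-high, 2897 CPM in middle, 2301 CPM in MT1E-negative and 3358 CPM in DMSO cells. CKS2, a CDK-binding subunit, was at 0.57 and CDK1 at 0.14, with an interval that held equality, 0.03 in the regrouped cells and -0.44 in cells with 24000 or more counts. The ratio of the sum was 1.35 (1.34 to 1.37), between 1.22 and 1.31 within depth bands and 1.19 in the regrouped cells. Of 19 genes of the S phase list, 0 passed and 16 were above 1, with GINS2 (a replication helicase subunit) at 0.52, RRM2 (ribonucleotide reductase) at 0.40 and UNG at -0.43, and a ratio of the sum of 1.16. Among the 515 MT1E-high and 621 MT1E-negative cells at or under the median of thinned G2/M counts, a restriction chosen after seeing the data, the ratio of the summed other metallothioneins was 1.53.

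**Figure D5:**
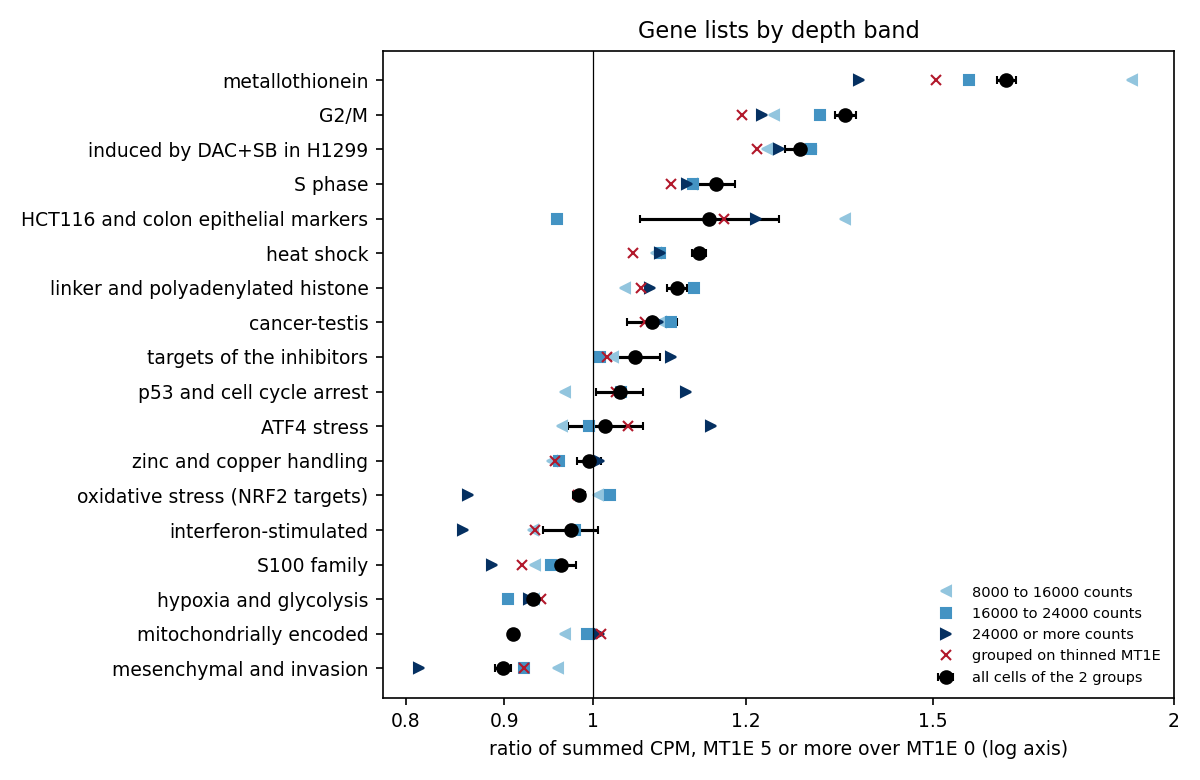
Ratio of summed CPM in MT1E-high over MT1E-negative cells for 18 gene lists on a log axis (black, all cells with 95% counting intervals; blue marks, the 3 depth bands; red crosses, cells regrouped on thinned MT1E counts). The metallothionein list (1.64, without MT1E) was highest, followed by G2/M (1.35); the zinc and copper list lay at 1.00.

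Of 11 compared members of a list of genes induced by the drugs in H1299, chosen from earlier results on these libraries, MT1G, itself a metallothionein, alone passed 1.5-fold. Of the list, 10 were above 1 and the median log2 ratio was 0.36. RP11-206M11.7, the most abundant of them, was at 770 CPM in MT1E-high, 656 CPM in middle and 587 CPM in MT1E-negative cells and 0.173 CPM with DMSO (log2 ratio 0.39, 0.36 to 0.43). PNMA5, a gene derived from a retroelement, was at 30.02 CPM and 20.1 CPM (0.58), RP11-973H7.4 at 0.51 and POMC, the precursor of ACTH, at 0.39. S100A6, which was not counted with DMSO, was at 91.9 CPM and 89.2 CPM, with an interval that held equality (0.04, -0.05 to 0.14). TKTL1 was at 0.19, and at -0.13 after thinning. G0S2 was at -0.13, with an interval that held equality, and at 0.004 after thinning. Against the name of the list, it was far higher with DMSO, at 491 CPM, than in MT1E-high (36.2 CPM) or MT1E-negative (39.5 CPM) cells.

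Of 15 cancer-testis genes compared, SYCP3, of the meiotic chromosome axis, was 1.53-fold higher (29.1 CPM against 19.1 CPM) and SSX1, of the SSX family, 1.60-fold (6.23 CPM against 3.90 CPM). Neither passed in the regrouped cells, with log2 ratios of 0.52 and 0.42. Of the list, 12 were above 1 and MAGEA10 was lowest at a log2 ratio of -0.29. The known targets of the drugs were near 1: DNMT1 was at 116 CPM and 96.9 CPM (0.26), and 0 of 13 passed. DCK, the kinase that activates decitabine, was at 0.24 and DNMT3A at -0.20, with intervals that held equality. Of 12 histone genes 0 passed, with H2AFZ at 0.30, H1F0 at 0.20 and HIST2H2BE at -0.32. Of 7 S100 genes 0 passed, with S100A16 at 0.25, S100A2 at 0.16 and S100A4 at -0.19.

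Markers of the line and of the other line were set beside these values, since HCT116 cells carry far more MT1E (1588 CPM in all treated HCT116 cells). Of 16 mesenchymal genes compared, 0 passed and 7 were above 1, with a ratio of the sum of 0.90. ZEB1 was at 0.18 and PLAU at -0.58, and the intermediate filament gene VIM was at 1031 CPM in MT1E-high and 1311 CPM in MT1E-negative cells. Of 20 colon epithelial markers, 3 reached 200 counts: CLDN3 was at 27.2 CPM and 19.3 CPM, CLDN4 at 6.18 CPM and 4.74 CPM and LCN2 at 14.2 CPM and 17.1 CPM. EPCAM had 118 and 68 counts. The list had a count for 17 of its members and summed to 64.9 CPM in MT1E-high and 56.5 CPM in MT1E-negative cells, against 1.40 CPM with DMSO. KRT20, CEACAM5 and FABP1 had no count. Between 0.297% and 0.892% of the barcodes of either group also occurred in an HCT116 library, and without those cells the metallothionein ratio was 1.64.

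With cells of all depths pooled, mitochondrial transcripts took a smaller share in MT1E-high cells, but not in every depth band. All 10 mitochondrially encoded genes compared were below 1 when pooled, the highest and lowest being MT-ND1 at -0.04 and MT-ND5 at -0.21, with MT-ND4L at -0.04, and the ratio of the sum was 0.91. Within depth bands that ratio was 0.97, 0.99 and 1.01. From the shallow to the deep band MT-ND1 was at 0.01, 0.17 and 0.08, and MT-ND4L at 0.03, 0.13 and -0.02. Mitochondrial counts took a median of 8.22% of a cell in the MT1E-high, 8.85% in the middle and 9.08% in the MT1E-negative group. In the regrouped cells the ratio of the sum was 1.01. Without the 13 MT1E-high and 24 MT1E-negative cells above 25% mitochondrial counts the metallothionein ratio was 1.62.

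Genes around MT1E were slightly higher in MT1E-high cells over a long stretch of the chromosome. Within 1 Mb of MT1E, 14 genes outside the family were compared. None passed 1.5-fold, 12 were above 1, and the median log2 ratio was 0.24, from -0.26 (BBS2, of the ciliary BBSome) to 0.32 (NUP93, a nuclear pore protein at 29.3 CPM and 23.5 CPM). Of the 206 genes compared on chromosome 16 that start beyond 40 Mb, metallothioneins left out, 155 (75.2%) were above 1, with a median of 0.16. On the same chromosome before 40 Mb, 134 of 228 (58.8%) were above 1, with a median of 0.04, and on all other chromosomes 54.5% of 9294, with a median of 0.02. Among 187 windows of 10 Mb with at least 20 compared genes, the window that holds MT1E (50 to 60 Mb, 37 genes, 33 above 1) ranked 2 by its median of 0.21, and 1 in the regrouped cells (0.18). The window ranked 1 was chromosome 19 from 20 to 30 Mb, with 21 of 27 genes above 1. Its median was 0.24, and 0.17 in the regrouped cells. A median of this size was therefore not particular to the stretch around MT1E.

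The pattern on chromosome 16 was made of small differences. The median of the 206 genes was 0.13, 0.18 and 0.21 in the 3 depth bands and 0.12 in the regrouped cells. Against cells with no MT1E count it was 0.10 in cells with 1 to 4, 0.14 with 5 to 9, 0.16 with 10 to 19 and 0.16 with 20 or more, while the median over other chromosomes lay between -0.004 and 0.03. Their 3 members past 1.5-fold were ANKRD26P1, CRISPLD2 and SHCBP1, named after their values were seen. On all other chromosomes 39 of 9294 genes passed 1.5-fold upward, and 0.580% of all genes compared did. Summed over all genes of that stretch without metallothioneins, the counts were 16381 CPM in MT1E-high, 15973 CPM in middle and 15681 CPM in MT1E-negative cells, a ratio of 1.04 (1.04 to 1.05). The share of a cell's counts had a median of 1.63% (quartiles 1.47 and 1.80) and of 1.56% (1.39 and 1.74), so the groups overlapped widely. The cause was not tested.

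Transposable elements took nearly the same share of counts in both groups. The share was 3.23% in MT1E-high, 3.03% in middle and 3.05% in MT1E-negative cells, against 0.198% with DMSO, and the ratio of MT1E-high to MT1E-negative cells was 1.06 (1.05 to 1.06). In cells thinned to 8000 counts the median share was 2.77% (quartiles 1.89 and 4.06) and 2.49% (1.61 and 3.74). With mitochondrial and ribosomal protein genes left out of the total the ratio was 1.02. Of 145 families compared, 5 (3.45%) were at least 1.5-fold higher and 1 (0.690%) lower, and in thinned cells 0 and 0 of the 101 families that still had the counts. Families that fell under 200 counts by thinning could not enter that last count, whatever their ratio.

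The 5 higher families were small ones. HERV-Fc1_LTR2, a long terminal repeat (LTR) of an endogenous retrovirus, was at 8.11 CPM and 4.44 CPM (log2 ratio 0.87, 0.47 to 1.28), and 1 of its 4 loci held 70.6% of its counts, without which the log2 ratio was 0.49. The DNA transposons Tigger3 and MER44B were at 0.71 and 0.65, AluYh7 at 0.62 and MER70B at 0.60. MER70B was at -1.69 in cells with 8000 to 16000 counts and at 0.33 without its top locus. Tigger3 was at -0.03 in cells with 24000 or more counts, and AluYh7 at 0.43 without its top locus. Next were HERV-Fc1_LTR1 at 0.44, MER51E at 0.40 and MER66B at 0.39, which did not pass. The lowest were LTR10B2 at -0.66, the only one past 1.5-fold, MER4E1 at -0.51, L1ME3E_3end at -0.39, MER52D at -0.35 and AluYb9 at -0.32.

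LTR12C, an LTR of the HERV9 group and the most abundant family in these cells, was at 19402 CPM in MT1E-high and 18267 CPM in MT1E-negative cells, a log2 ratio of 0.09 (0.08 to 0.09). Of 521 LTR12C loci with 200 counts, 22 (4.22%) were at least 1.5-fold higher and 15 (2.88%) lower, with a median of 0.02 and a range from -1.16 to 0.91. No share over the loci of other families is given here, so these shares cannot be read as particular to LTR12C. Of its relatives, none of which passed 1.5-fold, LTR12 was at 0.32, LTR12D at 0.24 and LTR12B at 0.21 (0.02 without the 1 locus that held 45.8% of its counts), while LTR12E was at -0.21 and LTR12F at -0.21. In cells with 24000 or more counts LTR12B and LTR12E lay on the other side, at -0.13 and 0.12. Over the 34 Alu families the summed ratio was 1.06, and over 38 L1 families 0.97.

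The same split was made in the treated HCT116 library, where 1700 of 2330 cells with at least 8000 counts were MT1E-high and 168 MT1E-negative, with median depths of 12018 and 10288 counts. MT1E was at 1588 CPM over all treated HCT116 cells and 272 CPM over all treated H1299 cells. The same counts thus cut unlike parts of the MT1E distributions of the lines. With that limit, MT2A, the joined MT1X name, MT1G and MT1H differed more in HCT116, and MT1F, MT1A and MT3 about as much as in H1299. MT2A was at 8490 CPM and 2027 CPM, a ratio of 4.19 (4.06 to 4.33) against 1.63 in H1299. The joined MT1X name had a ratio of 3.62 against 1.37, and MT1G one of 6.42 (5.48 to 7.57) against 1.99. MT1F had a ratio of 2.79 against 2.74, MT1A 2.37 against 2.35 and MT3 1.29 against 1.37. MT1L had 2.66 (1.43 to 5.61) against 1.97. MT1H had 26.3 (10.2 to 96.6) against 0.746, the H1299 value being the one that 1 cell decided. The HCT116 value of MT1H rested on 1223 counts in MT1E-high and 4 in MT1E-negative cells. MT1G and MT1H share stretches of sequence with MT1E, and the part of shared reads in their HCT116 values was not tested either. The sum of the other family members had a ratio of 4.19 (4.07 to 4.32), against 1.64 in treated H1299. TEs had a ratio of 0.94 (0.94 to 0.95), below 1 where that of H1299 was above. The G2/M list had a ratio of 0.98, with an interval that held equality (0.95 to 1.01). The genes of chromosome 16 beyond 40 Mb had a median log2 ratio of 0.11 over 164 genes, against 0.07 over other chromosomes. The difference between the lines was not tested, since each is 1 library.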

How the data were processed

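The deposited data are counts in 2 long tables, for genes and for TEs, that give a feature, a cell and its whole-number count per line, with the library in the cell name. Per the submitters' processing notes, CASAVA, STAR, GRCh38 and hg38 were used, with no versions or roles given. Whether counts are of molecules, the use of strand and the handling of multiple matches: not given in the sources used here. Numbered features were listed only from a library total of 10 counts, so a gene at 0 can have lost up to 9 counts for each such feature. The DMSO library listed no numbered MT1E feature, and in treated H1299 that feature held 15952 of 16996 MT1E counts.

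Counts of features with the same name before the first bar were summed. Names that join several genes (11.7% of gene counts) were left out of the gene comparison. Counts were summed per group and divided by the group's total without MT1E. A gene, family or locus was compared with at least 200 counts over both groups and called at 1.5-fold. Intervals were exact (Poisson, and conditional binomial for ratios). Named genes were the whole metallothionein list, the 10 highest and 10 lowest genes in at least 10% of the cells of the higher group that kept their direction after thinning and in every depth band, the 8 highest and 5 lowest families with LTR12C, the 2 highest and the lowest member of each list, the induced list, and the 5 genes most like MT1E. Some genes that this rule names are not reported here. Members and gene lists were chosen with earlier results of these data known. Positions are from GENCODE v29, to which 9749 of the compared genes matched once. Doublets were not called, and the 5% of cells with most counts were left out in an alternative. Python 3.11.15, numpy 2.4.6, scipy 1.17.1, pandas 2.3.3 and matplotlib 3.10.9 were used, and the ratio and the thinning were tested on simulated data. Total depth was 22329052 counts for MT1E-high, 21549056 for middle and 16652084 for MT1E-negative cells. Of the 14 alternatives tried, 3 were chosen after seeing the data.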

Additional observations from a re-analysis of the deposited data

How the results depend on the processing

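The ratio of the other metallothioneins stayed above 1 and the TE share ratio stayed between 1.02 and 1.09 in every alternative run. With each cell thinned to 8000 counts these ratios were 1.69 and 1.07, and families past 1.5-fold numbered 0 higher and 0 lower among those that still reached 200 counts. At 8000 to 16000 counts they were 1.90 and 1.07, with 35 genes higher, 3 families higher and 0 lower. At 16000 to 24000 counts they were 1.57 and 1.07, with 11 genes lower and 0 families in either direction. At 24000 or more counts, an alternative added after seeing the data, they were 1.37 and 1.09, with 102 genes higher, 21 lower and 0 families. Fewer genes and families reach 200 counts in these subsets. Without the deepest 5% of cells the TE ratio was 1.07 and 3 families were higher. With the mean of each cell's CPM the ratios were 1.71 and 1.07, with 3 families higher. With 10 or more MT1E counts as high they were 1.84 and 1.08, with 80 genes lower, 0 families higher and a depth ratio of 1.30 in place of 1.19. With groups set on thinned MT1E they were 1.51 and 1.08, with 31 genes higher, 27 lower, 1 family higher and a depth ratio of 1.01. Without mitochondrial and ribosomal protein genes in the total they were 1.58 and 1.02, with 76 genes lower and 3 families higher. A minimum of 50 counts gave 303 genes higher and 342 lower, and 11 and 9 families. Adding joined names gave a metallothionein ratio of 1.58. Added after seeing the data, the set without barcodes shared with HCT116 gave a TE ratio of 1.05, and cells low in G2/M counts gave 1.53 and 1.08, with 37 genes and 2 families higher. Where these counts moved, the cause was not tested. Of 102 named genes and families, 12 moved beyond their counting interval in thinned cells and 5 with the mean of each cell, and under these settings 0 that passed 1.5-fold turned direction. Of the 34 that passed, 2 turned in a depth band, MER70B (-1.69 at 8000 to 16000 counts) and Tigger3 (-0.03 at 24000 or more). Among the 34, the 20 highest and lowest genes were named only if they kept direction after thinning and in each band. That these did not turn was fixed by the naming rule and is no check. Counts under 200 and the depth gap limit the small members. No paired analysis was possible because all cells compared come from 1 library with no replicates.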

Other observations

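Zinc finger genes of chromosome 19 were looked at as a group. Of 160 compared genes with ZNF, ZSCAN, ZFP or ZIM names on that chromosome, 4 passed 1.5-fold upward and 1 downward, against 1 and 0 of 157 such names on other chromosomes, 4 and 8 of 598 other genes of chromosome 19, and 0.580% and 0.449% of all genes. Of the 160, 113 were above 1, with a median log2 ratio of 0.17, against 70 of 157 and a median of -0.02 for such names on other chromosomes and a median of 0.03 for the other 598 genes of chromosome 19. The median of the 160 genes was 0.10, 0.12 and 0.28 in the 3 depth bands and 0.11 in the regrouped cells. In the window of chromosome 19 from 30 to 40 Mb, the median over its 118 compared genes of all kinds was 0.19, but 0.06 in the regrouped cells and -0.03 at 8000 to 16000 counts. In the window from 20 to 30 Mb, the median over its 27 compared genes was 0.24, and 0.17 in the regrouped cells. It was 0.12, 0.14 and 0.27 there in the 3 depth bands from shallow to deep. The zinc finger genes were grouped after their values were seen.

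CCL20, a chemokine gene chosen after its values were seen, went with MT1E without passing the rule for named genes. It was at 12.1 CPM in cells with no MT1E count, 12.7 CPM with 1 to 4, 17.3 CPM with 5 to 9, 25.8 CPM with 10 to 19 and 47.5 CPM with 20 or more. Its log2 ratio was 1.05 over all cells and -0.26 at 8000 to 16000 counts, and 1 MT1E-high cell held 56 of its 556 counts.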
